A study of Homo sapiens with 40 samples.

Results

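The cytosolic ribosome is built from rRNA and a set of small proteins. Their genes are named RPS for the small subunit and RPL or RPLP for the large subunit. Members were all protein-coding genes whose RefSeq symbol is of the form RPS or RPL followed by a number, with RPSA and the P stalk genes, that had a probe on the array and a mean log2 intensity above 6 in at least 1 group. Of 86 such genes, 75 had a probe that was annotated to 1 symbol, and 71 passed the intensity line, out of 10608 genes tested. These 71 comprised 39 large-subunit proteins, 24 small-subunit proteins, the P stalk proteins RPLP1 and RPLP2, and 6 paralogues (RPL7L1, RPL26L1, RPL39L, RPS27L, RPS4Y1 and RPS4Y2). The highest group mean was 6.39 for RPL37, the member just inside the line, and 5.62 for RPL10L, the gene just outside it. RPL10, RPL22L1 and RPL3L were left out with highest group means from 4.56 to 4.66, and 11 genes without a listed probe, among them RPLP0 and RPSA, were not analysed here.

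The study measured transcripts on 40 one-colour Illumina bead arrays in A549, an established lung carcinoma cell line. Cells received a nonspecific siRNA (siNS) or one that targets ZNF282, CCAR2, CCAR1 or CoCoA (the product of CALCOCO1), all coregulators of the glucocorticoid receptor, were moved to hormone-free medium, and then had ethanol or 100 nM dexamethasone (dex, a synthetic glucocorticoid) for 6 h. The protocol text gives 6 h for both, whereas the titles mark ethanol arrays as 0 h and dex arrays as 6 h, so dex and time cannot be told apart if the titles are right. Each treatment had 6 siNS arrays, 4 arrays each for siCCAR1, siCoCoA and siCCAR2, and 2 arrays for siZNF282, which carry the numbers 2 and 3. The labels give 1 numbered siRNA for ZNF282 and do not say whether arrays came from separate cultures, so that p-values measure the spread between arrays, which may be technical.

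Cells spend a large share of their transcription and translation on ribosomes, and the supply of ribosomal protein mRNAs is kept in balance with rRNA synthesis. Nearly all of these mRNAs begin with a C followed by a run of pyrimidines, the terminal oligopyrimidine (TOP) motif, through which mTORC1 and the LARP1 protein set how well they are translated. Ribosomal proteins that are made in excess are degraded, and some, such as RPL5 and RPL11, can bind MDM2 and stabilise p53 when ribosome assembly fails.

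The start sites of 8 members show what most members shared at the sequence level and the choice rule did not use. They were taken from RefSeq (GRCh38.p14) and run from 10 bases before the annotated start to the 20th base from it. RPL29, RPL36A, RPS21, RPL22 and RPL28 are shown because their transcripts were among the most changed, RPL41 and RPL38 because they were among the brightest, and RPS27L because its transcript moved the other way. Capitals mark the run of C and T that begins with a C at the annotated start, where it holds at least 4 bases after that C. RPS29, which was brighter than RPL38, and RPS7, which also fell in siZNF282, lack this run and are not shown. The 8 starts therefore carry the run more often than the members as a whole.
RPL29, chr3:51995876-51995905, minus strand: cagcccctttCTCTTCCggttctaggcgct
RPL36A, chrX:101391001-101391030, plus strand: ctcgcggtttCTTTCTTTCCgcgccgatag
RPS21, chr20:62387093-62387122, plus strand: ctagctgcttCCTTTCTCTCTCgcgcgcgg
RPL22, chr1:6199576-6199605, minus strand: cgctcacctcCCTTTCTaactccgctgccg
RPL28, chr19:55385922-55385951, plus strand: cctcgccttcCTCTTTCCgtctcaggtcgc
RPL41, chr12:56116623-56116652, plus strand: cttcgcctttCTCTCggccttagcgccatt
RPL38, chr17:74203668-74203697, plus strand: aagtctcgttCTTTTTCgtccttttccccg
RPS27L, chr15:63157458-63157487, minus strand: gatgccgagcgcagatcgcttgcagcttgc

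Of the 71 members, 60 matched an entry of the RefSeq promoter table, and 41 of these (68.3%) had the run at an annotated start. The same run, searched on the transcribed strand only, was found for 7.60% of the matched genes tested and at 4.07% of all 35116 annotated starts. Mitochondrial ribosomal protein genes, whose products form a separate ribosome inside the organelle, had it in 6 of 64 matched genes (9.38%). The 19 matched members without it included RPS27L, RPL7L1 and RPL26L1 among the paralogues and RPS7 and RPS29 among the others. A missing run says only that these letters do not start at the annotated base.

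Members were among the brightest genes of the arrays. The median member had a mean log2 intensity of 13.1 over the 40 arrays, against 7.31 for all genes tested, and 40 members lay above 13, where they made up 41.7% of the 96 genes. The brightest were RPL41, a very short peptide at the subunit interface, with 14.13, RPS29 with 14.08, and RPL38, which mouse embryos need to translate Hox mRNAs, with 14.07. Among the dimmest were RPL37 with 6.06 and RPL36A with 6.77, and 10 members in all lay below 10. Intensities of different probes depend on the probe, so these ranks describe the arrays and not the numbers of mRNAs. The median pooled SD of a member within groups was 0.150 on the log2 scale. The brightest members lay near the highest value of any probe, where the range is narrow, so this SD was not set against that of dimmer genes. Ribosomal protein genes have many processed pseudogenes and near-identical relatives, whose transcripts the probes may also read.

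The 40 arrays correlated with each other at 0.948 to 0.993 over all probes, and all 6 A549 epithelial markers lay above the filter line of 5, with highest group means from 7.53 to 12.88. Of the markers of other cell types, 0 of 3 endothelial, 2 of 4 leukocyte (highest group mean 8.13) and 2 of 4 fibroblast markers (highest 5.72) lay above it. ZNF282 itself was lower in siZNF282 arrays by 1.42 (SE 0.26) in ethanol and by 0.85 (SE 0.26) in dex on the log2 scale. Interferon-stimulated genes were called higher, 9 of 9, in each of the 8 comparisons of a depletion with siNS, with median log2 changes from 3.03 to 4.96 in the other depletions and of 6.71 in ethanol and 5.88 in dex for siZNF282. The part of this response in the changes of ribosomal protein genes was not tested.

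**Figure D1:**
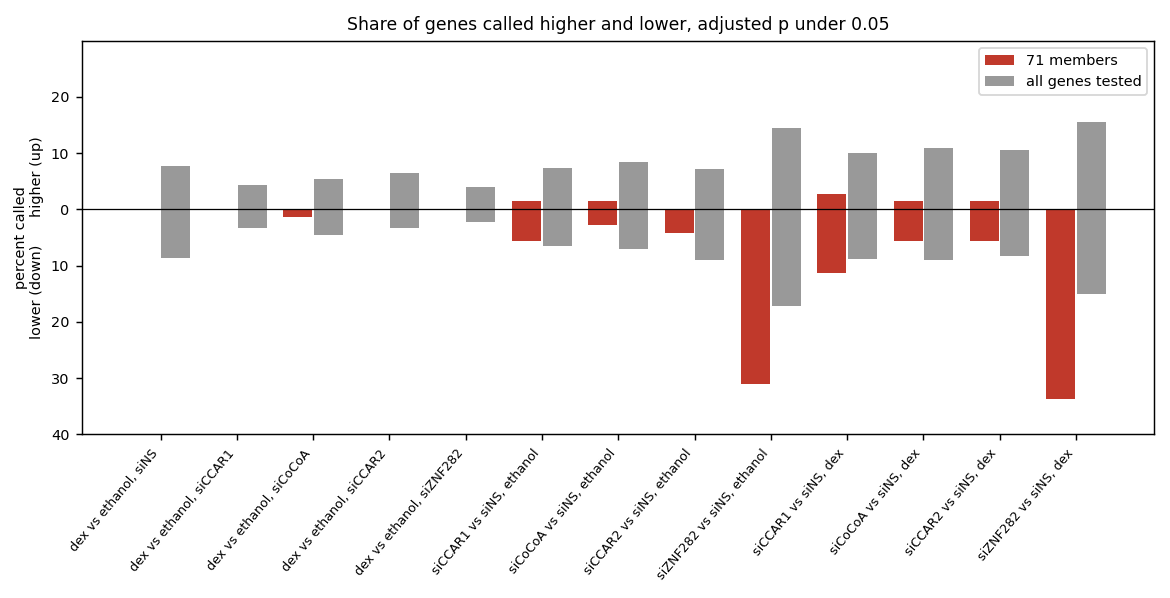
Percent of the 71 members (red) and of all 10608 genes tested (grey) called higher (bars up) and lower (bars down) in the 5 comparisons of dex with ethanol and the 8 comparisons of a depletion with siNS. Members were nearly absent from the dex calls, and for siZNF282 their calls were all lower, 31.0% in ethanol and 33.8% in dex.

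Almost no ribosomal protein transcript passed the test for dex against ethanol. In siNS cells none of the 71 members passed the test (limma, Benjamini-Hochberg adjusted p under 0.05), while 16.3% of all genes did. An unadjusted p under 0.05 was seen for 1 member. Members were read with their brightest probe, at a median level of 13.1 against 7.31 for all genes. The part of brightness in the lack of calls was not tested. Log2 changes of members lay between -0.19 and 0.21 with a median of 0.02, and every 95% confidence interval lay within -0.44 to 0.45, so changes larger than that were outside the interval of each member. In the same arrays, 6 of 7 known glucocorticoid-induced genes rose, with a median log2 change of 2.86.

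RPL41, the brightest member, lay near the highest value of any probe, where a rise could show little. Its 6 siNS arrays ran from 14.02 to 14.25 with a median of 14.18 in ethanol, and from 13.90 to 14.18 with a median of 14.09 in dex. The groups overlapped. RPL29, whose product is also known as a heparin-binding protein, ran from 8.46 to 8.79 (median 8.67) in ethanol and from 8.41 to 8.66 (median 8.54) in dex, and these groups overlapped too.

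Depleted cells gave 1 call in all in the fit that did not use the array numbers. No member was called under dex in siCCAR1 (background 7.68% of genes), siCCAR2 (9.72%) or siZNF282 (6.19%), where 3, 2 and 4 members had an unadjusted p under 0.05. In siCoCoA (9.93%) the call was RPL22, a large-subunit protein that also binds a small RNA of Epstein-Barr virus. Its values were 11.29, 11.00, 11.26 and 11.15 in ethanol and 10.23, 10.75, 10.99 and 10.78 in dex, so the lowest dex array stood apart and the groups did not overlap. RPL22 fell by 0.48 (SE 0.15, adjusted p = 0.0306). Without dex array 1 of siCoCoA the change was -0.33 (adjusted p = 0.188), and leaving out ethanol array 1, 3 or 4 also ended the call (adjusted p from 0.0531 to 0.0891). So did array weights (-0.39, adjusted p = 0.0507) and a fit of the compared groups alone (adjusted p = 0.0965).

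Arrays of the same number deviated together in these 4-array comparisons, and a fit with the number as a block called RPL29 under dex in siCCAR1 (-0.30, adjusted p = 0.0482) and in siCoCoA (-0.29, adjusted p = 0.0485) and RPL5 in siCCAR2 (-0.32, adjusted p = 0.0426). Without the block their adjusted p was 0.0664, 0.0673 and 0.117. No member was called in the test of whether a depletion altered the dex response, for siCCAR1 (background 0.104% of genes), siCoCoA (0.00943%), siCCAR2 (0.0848%) or siZNF282 (0.245%). Members with an unadjusted p under 0.05 numbered 0, 2, 1 and 3.

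**Figure D2:**
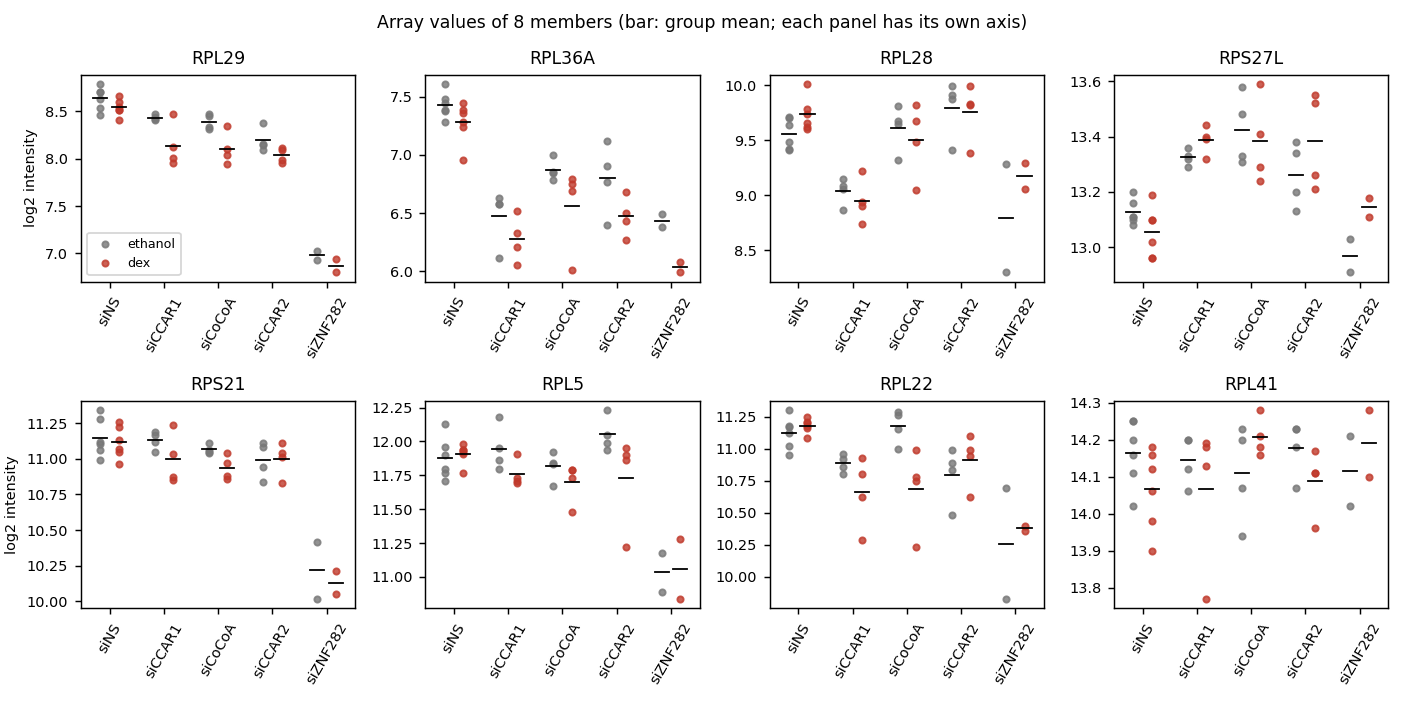
Log2 intensity of 8 members on every array, by siRNA, in ethanol (grey) and dex (red), with the group mean as a bar. RPL29, RPS21 and RPL5 are low in siZNF282 arrays, RPL36A is low in all depleted groups, and RPL28 is low in siCCAR1 and siZNF282. In dex, RPS27L is high in siCCAR1, siCoCoA and siCCAR2. RPL41 stays near 14.

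In siCCAR1, siCoCoA and siCCAR2 cells a smaller share of members than of all genes was called, counting rises and falls together. These shares compare genes of unlike brightness, since the median member lay at 13.1 with its brightest probe and the median gene tested at 7.31. The part of brightness in the smaller shares was not tested. In RNA from whole cultures, fewer cells of a type and less RNA per cell cannot be told apart. All comparisons with siNS within a treatment share its 6 siNS arrays. In ethanol, 5 members were called in siCCAR1 (7.04%, against 13.8% of all genes), 3 in siCoCoA (4.23% against 15.5%) and 3 in siCCAR2 (4.23% against 16.2%). In dex the counts were 10 in siCCAR1 (14.1% against 19.0%), 5 in siCoCoA (7.04% against 20.1%) and 5 in siCCAR2 (7.04% against 18.9%). Falls alone gave another picture in siCCAR1 in dex, where 8 members were called lower (11.3%), a larger share than of all genes (8.90%). In the rest of the 6 comparisons the share of members called lower was smaller than that of all genes. Medians over the 71 members were between -0.05 and 0.01 in these 6 comparisons.

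RPL36A, an X-linked large-subunit gene, was the member called lower in all 8 comparisons. In ethanol its 6 siNS arrays ran from 7.28 to 7.61 with a median of 7.42. The siCCAR1 arrays read 6.58, 6.58, 6.63 and 6.11, the siCoCoA arrays 6.85, 7.0, 6.84 and 6.78, the siCCAR2 arrays 6.77, 6.40, 6.90 and 7.12, and the siZNF282 arrays 6.38 and 6.49. All 14 depleted arrays, at 6.11 to 7.12, lay below every siNS array. In dex the 14 depleted arrays lay between 5.99 and 6.79, again below the 6 siNS arrays at 6.96 to 7.45.
RPL36A fell by 0.96 (SE 0.13, adjusted p = 3.68e-06) in siCCAR1, by 0.57 (SE 0.13) in siCoCoA and by 0.64 (SE 0.13) in siCCAR2 in ethanol. In dex it fell by 1.00, 0.72 and 0.81 (SE 0.13 each). Its autosomal relative RPL36AL, which codes for a nearly identical protein, is outside the symbol rule and was not called in these 6 comparisons, with log2 changes from -0.16 to 0.16. In siZNF282 RPL36AL changed by 0.08 (SE 0.10) in ethanol and rose by 0.29 (SE 0.10, adjusted p = 0.0312) in dex.

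Outside siZNF282, RPL29 was lower in siCCAR2 in ethanol and in all 3 depletions in dex. Its ethanol values in siCCAR2 were 8.38, 8.16, 8.09 and 8.15, below the siNS arrays, and it fell by 0.44 (SE 0.09, adjusted p = 0.000569). In dex it fell by 0.40 in siCCAR1, 0.44 in siCoCoA and 0.50 in siCCAR2 (SE 0.09 each).

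RPL28, a large-subunit protein without a counterpart in Saccharomyces cerevisiae, was lower in siCCAR1. Its values there were 9.15, 9.06, 8.87 and 9.08 in ethanol, against 9.41 to 9.71 (median 9.56) in siNS, and 8.90, 8.94, 9.22 and 8.74 in dex, against 9.60 to 10.01 (median 9.70). The groups did not overlap in either treatment. RPL28 fell by 0.52 (SE 0.15, adjusted p = 0.0181) in ethanol and by 0.79 (SE 0.15, adjusted p = 0.000268) in dex. In siCoCoA and siCCAR2 it was not called.

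RPS27L, a paralogue of RPS27 and a transcriptional target of p53, was the member that rose most often. The siNS arrays ran from 13.08 to 13.20 (median 13.11) in ethanol and from 12.96 to 13.19 (median 13.06) in dex. In dex, the siCCAR1 arrays read 13.40, 13.44, 13.32 and 13.39, the siCoCoA arrays 13.24, 13.59, 13.29 and 13.41, and the siCCAR2 arrays 13.55, 13.21, 13.52 and 13.26, all above every siNS array. It rose by 0.33 in each of the 3 depletions (SE 0.08, adjusted p from 0.00372 to 0.00406). In fits of the compared groups alone the calls in siCoCoA (0.33, adjusted p = 0.0534) and siCCAR2 (0.33, adjusted p = 0.0665) were lost.
In ethanol RPS27L rose by 0.30 in siCoCoA (SE 0.08, adjusted p = 0.0106), where leaving out array 1 gave 0.25 (adjusted p = 0.0594), and was not called in siCCAR1 (0.20) or siCCAR2 (0.14). In siZNF282 it was not called, with -0.16 (SE 0.10) in ethanol and 0.09 (SE 0.10) in dex.

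The remaining calls in these 3 depletions were scattered over single genes. In siCCAR1, the Y-linked genes RPS4Y1 (-0.53 in ethanol, -0.68 in dex) and RPS4Y2 (-0.81 and -0.71) were lower, and so were RPL37 (-0.67), RPL22 (-0.52) and RPL7L1 (-0.44, adjusted p = 0.0463) in dex. Without ethanol array 2 of siCCAR1 the change of RPS4Y1 was -0.43 (adjusted p = 0.0887). RPL34 was higher in siCCAR1, by 0.34 (SE 0.11, adjusted p = 0.0293) in ethanol and 0.31 (SE 0.11, adjusted p = 0.0393) in dex, with both calls weak. The ethanol call was lost without any 1 of siCCAR1 arrays 1, 2 and 4 and siNS arrays 1, 3 and 6 (adjusted p up to 0.108). The dex call was lost without any 1 of siCCAR1 arrays 2 and 4 and siNS arrays 3, 4 and 5 (adjusted p up to 0.188), and with the compared groups alone (adjusted p = 0.0789).
RPL39L, a paralogue of RPL39 best known from testis, was lower in siCoCoA, by 0.37 (SE 0.12, adjusted p = 0.0359) in ethanol and by 0.46 (SE 0.12, adjusted p = 0.00684) in dex. Its ethanol call was lost without array 4 of siCoCoA (-0.27, adjusted p = 0.204), and also without array 3 of siCoCoA or 1 of siNS arrays 1, 2, 3 and 5 (adjusted p from 0.0558 to 0.0971). RPL22 fell by 0.49 (SE 0.14, adjusted p = 0.00866) in siCoCoA in dex, and the call was lost without array 1 (-0.34, adjusted p = 0.0896).
In siCCAR2, RPS7, a small-subunit protein, was lower in ethanol (-0.30, adjusted p = 0.0311), and RPL23, which can bind MDM2, was lower in dex (-0.68, SE 0.16, adjusted p = 0.00280). Without ethanol array 4 of siCCAR2 the RPS7 value was -0.25 (adjusted p = 0.113), and the call was also lost without array 1 or 3 of siCCAR2 or array 2 or 5 of siNS (adjusted p from 0.0588 to 0.0882). RPL37 was also lower in siCCAR2 in dex (-0.59, adjusted p = 0.0407). Array numbers paired the samples there, and the fit with them as a block gave -0.57 (adjusted p = 0.0534). Without dex array 4 of siCCAR2, RPL37 changed by -0.37 (adjusted p = 0.254), and the call was also lost without dex array 2 of siCCAR2 or array 1, 3 or 4 of siNS (adjusted p from 0.0541 to 0.105). The mean of its probes gave -0.24 (adjusted p = 0.316). In dex the block also called RPL23A lower (-0.25, adjusted p = 0.0491) and RPL35A higher (0.21, adjusted p = 0.0310) in siCoCoA. In siCCAR2 it called RPL13 (-0.35, adjusted p = 0.0164) and RPS26 (-0.40, adjusted p = 0.0446) lower and RPL35A higher (0.20, adjusted p = 0.0414).

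**Figure D3:**
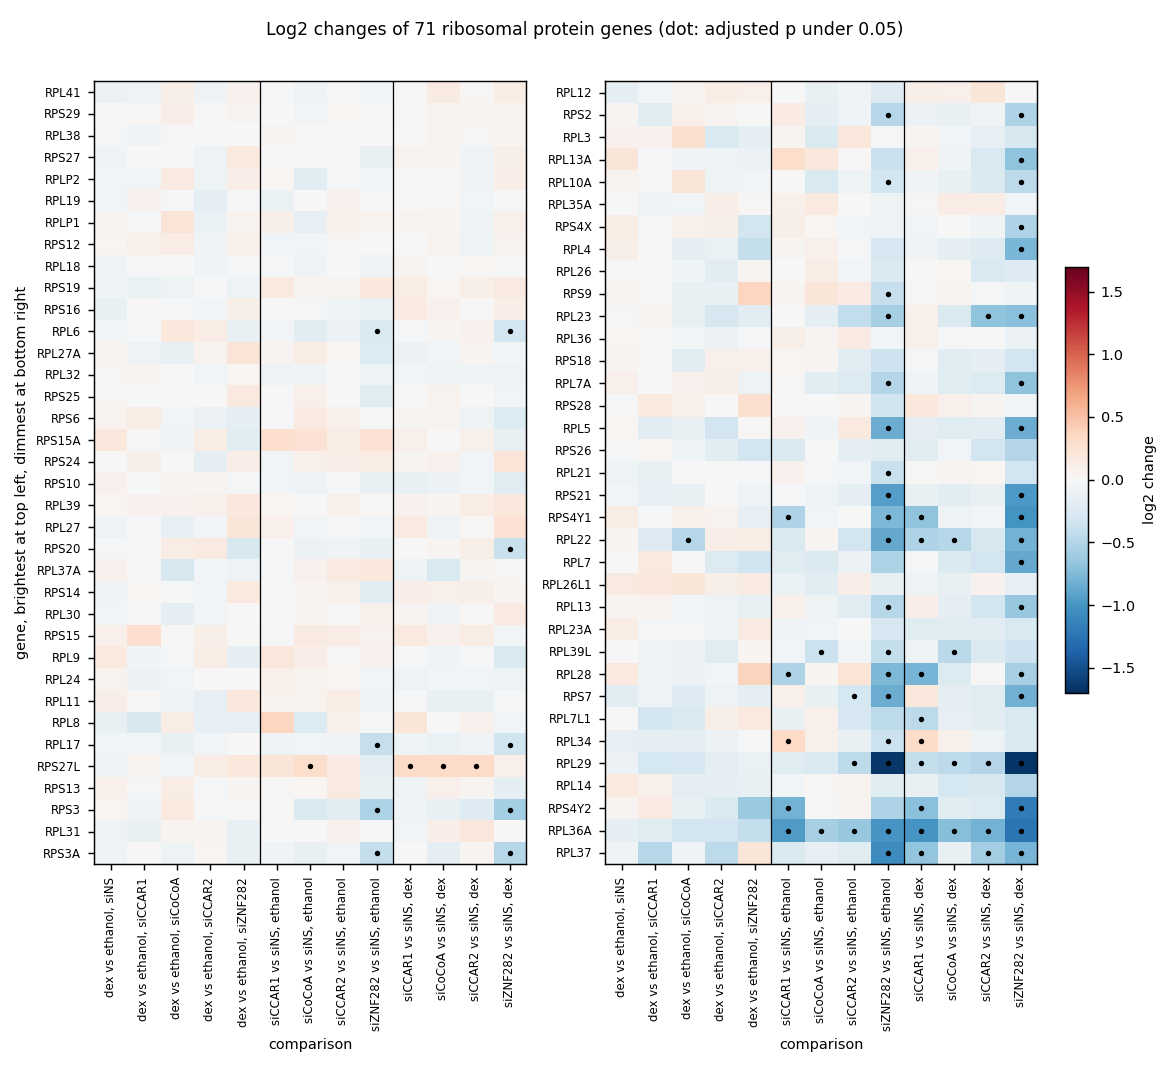
Log2 change of each of the 71 members (rows, brightest at the top left and dimmest at the bottom right) in 13 comparisons (columns), with blue for lower and red for higher and a dot where the adjusted p was under 0.05. The dots gather in the 2 siZNF282 columns and among the dimmer members of the right panel, with RPL36A called in all 8 depletion columns.

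The siZNF282 comparisons with siNS held the most calls of members, all of them lower. In ethanol 22 of 71 members fell and none rose (31.0%, against 17.1% of all genes called lower and 14.5% called higher). In dex 24 fell and none rose (33.8%, against 15.0% lower and 15.5% higher). The median log2 change was -0.20 in ethanol, where it was -0.08 over all genes, and -0.22 in dex, where it was -0.02. Members below 0 numbered 59 of 71 in ethanol and 53 of 71 in dex. The share called in either direction was close to the background of 31.6% in ethanol and 30.5% in dex, and all of the members' calls were in 1 direction.

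The same shift was visible in each array's mean over the 71 members. It ran from 12.31 to 12.38 on the 12 siNS arrays and from 12.18 to 12.37 on the 24 arrays of the other depletions. The siZNF282 arrays read 11.95 (array 2) and 12.17 (array 3) in ethanol and 12.01 and 12.09 in dex, below every other array, with array 2 of ethanol lowest.

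That array carried many of the ethanol calls. Without it 5 members were called lower (7.04%, against 6.67% of all genes), namely RPL29, RPL36A, RPL5, RPS21 and RPS7. Without array 3 of ethanol the count was 22 (31.0% against 15.7%), of which 18 were in the original 22. In dex, 11 members (15.5% against 7.85%) were called without array 2 and 20 (28.2% against 10.0%) without array 3. Without array 2 the median over members was -0.11 in ethanol, where it was -0.04 over all genes, and -0.12 in dex, where it was -0.03. RPL29, RPL36A, RPL5, RPS21 and RPS7 were called lower in each of these 4 fits, in which the lone siZNF282 array is assumed to vary like the other groups. Where both arrays were used, the 2 values of a group limit the precision.

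Large-subunit genes made up most of the calls, and also most of the members (39 of 71). In siZNF282, 14 of 39 large-subunit members fell in ethanol (35.9%) and 15 of 39 in dex (38.5%), with medians of -0.23 and -0.25. Of 24 small-subunit members, 6 fell in ethanol and 7 in dex, with a median of -0.13 in both. The difference between the subunits was not tested. RPLP1 and RPLP2, which recruit translation factors to the ribosome, were not called in either treatment. Among the 6 paralogues, RPS4Y1 fell in both treatments (-0.77 and -1.02), RPL39L in ethanol (-0.41) and RPS4Y2 in dex (-1.19, and -0.81 with adjusted p = 0.0512 without array 2).

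RPL29 showed the largest change of any member in both treatments. Its siZNF282 arrays read 6.93 and 7.03 in ethanol and 6.80 and 6.94 in dex, more than 1 log2 unit below every siNS array. It fell by 1.66 (SE 0.12, adjusted p = 2.33e-13) in ethanol, to 31.7% of the siNS level, and by 1.67 (SE 0.12, adjusted p = 6.26e-13) in dex, to 31.4%. A second RPL29 probe gave -1.51 and -1.65.

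RPS21, which takes part in the late maturation of the small-subunit rRNA, read 10.02 and 10.42 in ethanol and 10.05 and 10.21 in dex. The siNS arrays ran from 10.99 to 11.34 (median 11.11) and from 10.96 to 11.26 (median 11.10), with no overlap. RPS21 fell by 0.93 (SE 0.12, adjusted p = 7.60e-08) in ethanol and by 0.98 (SE 0.12, adjusted p = 2.30e-08) in dex.

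RPL5 and RPL11 bind the same small rRNA and can inhibit MDM2. RPL5 fell and RPL11 was not called, and the difference between the genes was not tested. RPL5 read 10.89 and 11.18 in ethanol, against 11.71 to 12.13 (median 11.85) in siNS, and 10.84 and 11.28 in dex, against 11.77 to 11.98 (median 11.93). It fell by 0.85 (SE 0.15) in both treatments, with adjusted p of 2.56e-05 and 2.08e-05. RPL11 read 12.92 and 13.43 in ethanol and 13.43 and 13.29 in dex, within the range of the siNS arrays in dex and overlapping it in ethanol, and was not called (-0.08 and -0.02, SE 0.15). RPL11 is the brighter of the pair on the array, with a mean of 13.31 against 11.77.

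RPS7 read 8.62 and 8.82 in ethanol and 8.54 and 8.57 in dex, against siNS ranges of 9.39 to 9.80 and 9.19 to 9.52. It fell by 0.84 (SE 0.12) and 0.82 (SE 0.12). RPL22 read 9.83 and 10.69 in ethanol and 10.36 and 10.40 in dex, so its ethanol arrays differed widely while both lay below the siNS range of 10.95 to 11.30. It fell by 0.87 (SE 0.17) and 0.80 (SE 0.17). RPL28 also had a wide pair in ethanol, 8.30 and 9.28, and fell by 0.77 (SE 0.19) there and by 0.56 (SE 0.19) in dex. RPL37 read 4.74 and 5.90 in ethanol, 1 of them near the floor of the array, and its fall of 1.07 became -0.49 (adjusted p = 0.346) without array 2.

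The calls in both treatments covered 18 members, which is 81.8% of the ethanol list and 75% of the dex list. Besides those described they were RPL6, RPL10A, RPL13, RPL17, RPL23, RPL7A, RPS2, RPS3 and RPS3A, listed here after their values were seen, with falls from 0.25 to 0.71. RPS3 and RPS2 line the path by which mRNA enters the small subunit, and RPL17 sits at the exit of the nascent peptide tunnel. RPL21, RPL34, RPL39L and RPS9 were called in ethanol alone, and RPL4, RPL7, RPL13A, RPS4X, RPS20 and RPS4Y2 in dex alone. No member's difference between the treatments passed the test. The overlap of the ethanol and dex lists is not given here over all genes, so the shares of 81.8% and 75% have no background beside them.

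For 25 members in ethanol (35.2%) both siZNF282 arrays lay below all 6 siNS arrays, as they did for 21.2% of all genes. In dex this held for 30 members (42.3%, against 18.3%).

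Compared with the other depletions in place of siNS, siZNF282 arrays again had lower members, in comparisons added after the data were seen. In ethanol 16 members were lower than in siCCAR1 (22.5%, against 18.2% of genes), 15 than in siCoCoA (21.1% against 13.7%) and 12 than in siCCAR2 (16.9% against 13.1%). In dex the counts were 18 (25.4% against 15.7%), 15 (21.1% against 10.5%) and 14 (19.7% against 11.6%). The 6 comparisons use the same siZNF282 arrays, and the member called higher in them was RPL27, against siCoCoA in dex (0.33, adjusted p = 0.0442). Without array 2 of the treatment, fewer members were called in each comparison, and the share of all genes called in those fits is not given here.

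RPL29, RPS21, RPL5 and RPS7 were lower in siZNF282 than in each other depletion in both treatments. RPL29 was lower by 1.17 to 1.45 in these 6 comparisons (SE 0.12), RPS21 by 0.77 to 0.91 (SE 0.12), RPL5 by 0.64 to 1.02 (SE 0.16) and RPS7 by 0.54 to 0.99 (SE 0.13). RPL36A, low in all depletions, was not called between siZNF282 and siCCAR1 (-0.04, SE 0.18 in ethanol and -0.24, SE 0.18 in dex). It was called lower in siZNF282 than in siCoCoA in dex (-0.52, adjusted p = 0.0348). The fit with the array number as a block gave -0.48 there (adjusted p = 0.0560).

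**Figure D4:**
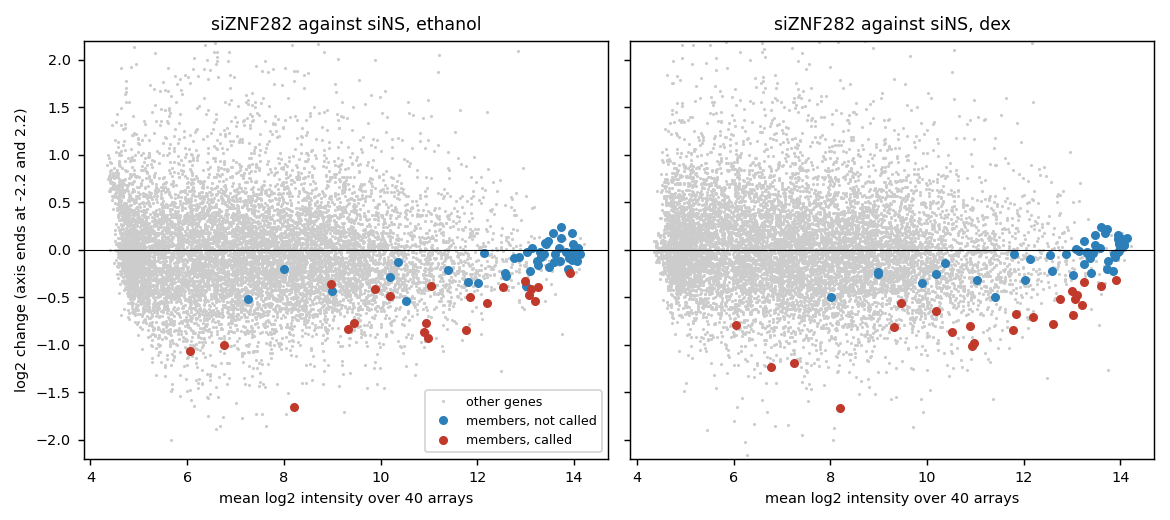
Log2 change in siZNF282 against siNS (y axis, cut at -2.2 and 2.2) against mean log2 intensity over the 40 arrays (x axis) for other genes (grey), members not called (blue) and members called (red), in ethanol and dex. Members near 14 lie around 0, and called members spread downwards as intensity falls, with RPL29 lowest at -1.66 and -1.67.

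Which members were called moved with probe brightness. In ethanol, 7 of 10 members below 10 fell, 7 of 12 between 10 and 12, 3 of 9 between 12 and 13, 4 of 17 between 13 and 13.5, and 1 of 23 above 13.5. Other genes in the same classes were called lower in 16.0%, 26.4%, 17.6%, 12% and 9.68% of cases. In dex the members' counts were 6 of 10, 7 of 12, 4 of 9, 5 of 17 and 2 of 23. The shares of other genes there were 13.5%, 26.0%, 20.3%, 4.0% and 19.4%, so above 13.5 other genes were called lower more often than members (8.70%). The median member changed by -0.64 below 10 and by -0.05 above 13.5 in ethanol.

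Genes with several probes showed the same relation within a gene. Among 29 members with at least 2 probes above the filter line, the dimmest probe gave the more negative siZNF282 change in 23 in ethanol, where medians were -0.09 for the brightest and -0.56 for the dimmest probe. In dex it did so in 19, with medians of -0.14 and -0.60. RPL8 and RPL3 were chosen after their values were seen. RPL8 had a bright probe (mean 13.30) at -0.02 and a dim one (mean 7.53) at -0.82 in ethanol. RPL3, at the peptidyl transferase centre, had probes of nearly equal brightness, 13.02 and 12.83, at -0.03 and -0.59. RPL41 gave -0.05 in ethanol and 0.12 in dex with the probe at 14.13, and -0.35 and -0.91 with the one at 6.59. The part of probe brightness, or of which transcripts each probe reads, in the siZNF282 calls was not tested. The counts above use the brightest probe of each gene.

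**Figure D5:**
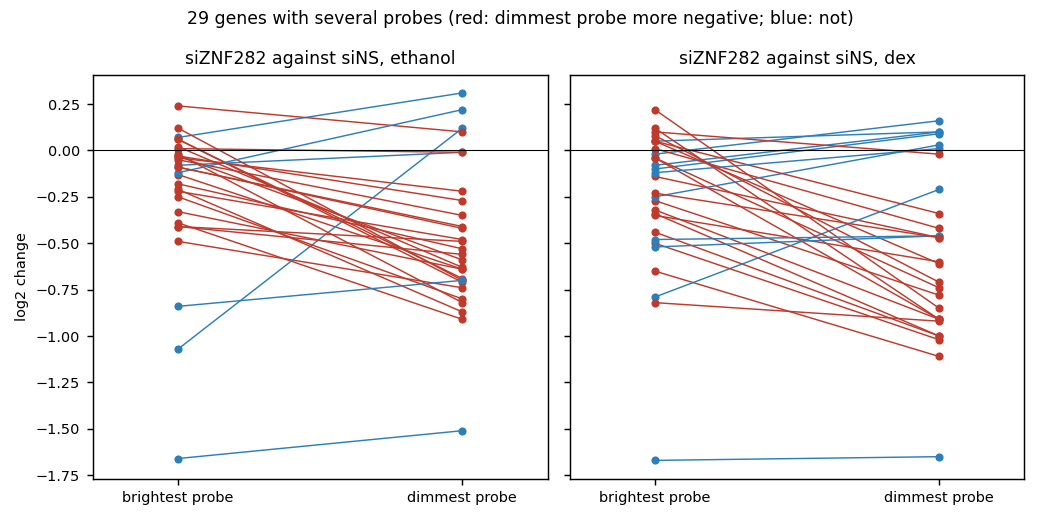
Log2 change in siZNF282 against siNS for the brightest and the dimmest probe of the 29 members with several probes, 1 line per gene, in ethanol and dex, in red where the dimmest probe was more negative. Red lines make up 23 of 29 genes in ethanol and 19 in dex.

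Some members with and some without the TOP run were called lower. Of all genes, 17.1% were called lower in ethanol and 15.0% in dex. Of 41 members with the run at an annotated start, 13 fell in siZNF282 in ethanol and 11 in dex, with medians of -0.18 and -0.09. Of 19 matched members without it, 4 fell in ethanol, near the share of all genes, and 7 in dex, with medians of -0.16 and -0.26. The 11 members that matched no entry could not be placed in either class. Of these, 5 fell in ethanol and 6 in dex, with medians of -0.41 and -0.38. The differences between these classes were not tested.

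Other lists of the ribosome pathway are set here beside the shares of all genes in siZNF282. These shares were 17.1% lower and 14.5% higher in ethanol and 15.0% lower and 15.5% higher in dex. The list counts rest on the same 2 siZNF282 arrays per treatment as the members' counts. They are not given without array 2, which carried many of the members' calls. Of 72 mitochondrial ribosomal protein genes, 32 fell in ethanol and none rose (44.4% lower, median -0.32), and in dex 37 fell and 1, MRPL46, rose (51.4% lower, median -0.39). MRPS27 fell by 1.01 (SE 0.18) and 1.26 (SE 0.18) in the 2 treatments. Cytosolic and mitochondrial sets are alike in size, and the difference between their counts was not tested.

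Ribosome assembly factors fell in 16 of 26 cases in ethanol (61.5%) and 14 in dex (53.8%), with medians of -0.46 and -0.39, and none rose. RPF2 and RRS1, which deliver RPL5 and RPL11 to the pre-ribosome, fell by 0.90 (SE 0.12) and 0.60 (SE 0.11) in ethanol. NOB1, the nuclease that makes the mature end of the small-subunit rRNA, fell by 0.84 (SE 0.20) there. Of 10 RNA polymerase I genes, 4 fell in ethanol and 1 in dex, the latter a smaller share than of all genes, with POLR1E lower in both (-0.65 and -0.82). In the 6 comparisons of the other depletions with siNS, from 0 to 5 of the 26 assembly factors fell. In each of these 6, a smaller share of all genes was called lower than in siZNF282. The highest count, 5 of 26, was a larger share than that of all genes called lower in any of the 6. These differences were not tested.

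Of 18 translation genes known for TOP mRNAs, 9 fell in ethanol (50%) and 11 in dex (61.1%), with medians of -0.35 and -0.46, and none rose. EIF4B, an initiation factor that aids unwinding of mRNA, fell by 1.07 (SE 0.18) and 1.18 (SE 0.18), and EIF3L by 0.89 (SE 0.16) and 0.83 (SE 0.16). Of 17 genes of mTORC1 and TOP translation control, 3 rose and 2 fell in ethanol and 1 rose and 1 fell in dex, no larger a share lower than of all genes (11.8% in ethanol and 5.88% in dex). EIF4EBP2, an inhibitor of cap-dependent initiation, rose by 0.88 (SE 0.15), RHEB, the GTPase that activates mTORC1, rose by 0.35 (SE 0.12), and MTOR fell by 0.61 (SE 0.17).

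Under dex in siNS cells a few other genes of the pathway were called. Of 26 assembly factors, 4 fell, where 8.61% of all genes were called lower and 16.3% in either direction. BYSL fell by 0.51 (SE 0.10), RRS1 by 0.54 (SE 0.08), RRP12 by 0.34 (SE 0.08) and DKC1 by 0.27 (SE 0.09). DDIT4, a glucocorticoid-induced inhibitor of mTORC1, rose by 1.55 (SE 0.12), and RPS6KB1, the kinase of ribosomal protein S6, fell by 0.49 (SE 0.08). TSC2 was also called and rose by 0.43 (SE 0.11). The share called of the 17 genes of mTORC1 and TOP translation control is not given here. None of 18 TOP translation genes and none of 10 RNA polymerase I genes was called, against a background of 16.3%.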

How the data were processed

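The log2 values were deposited by the authors for 34469 probes on 40 arrays. Bright probes share exact values between arrays, so they were used as already normalized. Per the labels' protocols, limma 3.14.4 was used; the authors' background correction and normalization are not given in the sources used here. A non-normalized table with 80 columns named by chip position was not used. Arrays were grouped by their titles.

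Here probes with 1 gene symbol and a group mean above 5 were kept, and the brightest probe stood for its gene (10608 genes). One limma fit (version 3.58.1, R 4.3.3) held all 10 groups (30 residual degrees of freedom), and p-values were adjusted by Benjamini-Hochberg over all genes of a comparison. Changes are differences of log2 means. The fit was tested on simulated data. The number of arrays limits the precision.

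The members and gene lists were chosen with earlier results of these data known. Named members were the top 3 called rises and falls of each comparison, any called in a difference of dex response, the 5 most variable over groups, the 3 brightest and 3 dimmest, the paralogues, RPL5 and RPL11. Same-numbered arrays deviated together (every correlation above 0.1) for dex against ethanol in siNS, siCCAR1, siCoCoA and siCCAR2 (0.13 to 0.47) and for siCoCoA and siCCAR2 against siNS in dex (0.13 to 0.39), so there the numbers pair the arrays; in the other comparisons they do not, or there were 2 pairs. Alternatives were other scalings, filters, probes, weights, a replicate block and leaving out arrays.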

Additional observations from a re-analysis of the deposited data

Results flagged for a closer look

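In groups of 4 or 6 arrays, 1 array stood apart from the others for 10 of 136 combinations of a named member and a group. Chance gives about 1 in 20 for a single combination. The combinations share arrays and are not independent, so the count was not tested against that rate. Array 3 of siCoCoA in dex was low for RPL11 (13.10, others 13.29 to 13.33), RPL34 (8.84, others 9.0 to 9.01) and RPL36A (6.01, others 6.69 to 6.79). RPL36A was also low on array 4 of siCCAR1 in ethanol (6.11, others 6.58 to 6.63). RPL5 was low on array 2 of siCCAR2 in dex (11.22, others 11.86 to 11.95) and on array 6 of siNS in dex (11.77, others 11.91 to 11.98). RPL37 was low on array 2 of siCoCoA in ethanol (6.01, others 6.32 to 6.36), RPL7L1 on array 1 of siCCAR2 in ethanol (8.37, others 8.99 to 9.05), and RPL41 on array 1 of siCCAR1 in dex (13.77, others 14.13 to 14.19). RPL39L was high on array 2 of siCCAR1 in dex (10.21, others 9.84 to 9.89).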

How the results depend on the processing

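Over all alternatives other than left-out arrays, 191 counts of members called stayed within 1.5 times the original and 26 did not, and no scaling moved the median of all genes by over 0.1. Counts under dex moved in siCCAR1 from 0 to 1 (filter line of 6, array weights, replicate block, and a fit of the compared groups alone), in siCoCoA from 1 to 0 (array weights, compared groups alone) or 2 (intensity trend, replicate block), and in siCCAR2 from 0 to 1 (replicate block). Against siNS in ethanol, siCCAR1 went from 5 to 8 and siZNF282 from 22 to 11 with array weights, and siCoCoA from 3 to 5 with bright-gene centring, a filter line of 6 or an intensity trend. Against siNS in dex, siCCAR2 went from 5 to 10 with the mean of all probes and to 3 with the compared groups alone. For siZNF282 against siCCAR1 in ethanol, 16 became 25 with the mean of probes and 27 with the dimmest probe. Against siCoCoA in ethanol, 15 became 9 with array weights, 23 with the dimmest probe and 5 with the compared groups alone. Against siCCAR2 in ethanol, 12 became 19 with the mean of probes, 6 with array weights and 3 with the compared groups alone. In dex the compared groups alone gave 9 for siCoCoA (originally 16) and 5 for siCCAR2 (originally 14). RPL37 in siZNF282 in ethanol turned to 0.12 with its dimmest probe, which lies at 4.86. The cause was not tested.

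With 1 array left out, calls under dex ranged from 0 to 0 in siNS, 0 to 1 in siCCAR1, 0 to 2 in siCoCoA, 0 to 1 in siCCAR2 and 0 to 3 in siZNF282. Against siNS in ethanol the ranges were 3 to 6 (siCCAR1), 2 to 4 (siCoCoA), 2 to 4 (siCCAR2) and 5 to 22 (siZNF282), and in dex 7 to 11, 4 to 6, 4 to 9 and 11 to 25. Differences in dex response ranged from 0 to 0 for siCCAR1, siCoCoA and siCCAR2 and from 0 to 1 for siZNF282. For siZNF282 against siCCAR1, siCoCoA and siCCAR2 they were 5 to 21, 4 to 18 and 3 to 16 in ethanol and 7 to 18, 5 to 15 and 3 to 17 in dex. Array 2 of siZNF282 gave the lowest count in each siZNF282 comparison with siNS or another depletion. Counts also moved by over 1.5 times without dex array 1 of siCCAR1 (1 under dex), ethanol array 2 or dex array 2 of siCoCoA (2), ethanol array 2 of siCCAR2 (1), ethanol array 3 of siZNF282 (3 under dex, 1 in the difference), ethanol array 2 of siCCAR1 (3) and dex array 3 of siCCAR2 (9).

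Of the 22 siZNF282 calls in ethanol, 5 were kept without array 2, 18 without array 3, 11 with array weights and 15 with the compared groups alone. Of the 24 in dex, 11 were kept without array 2, 19 without array 3 and 21 with the compared groups alone. The replicate block kept 20 of the 22 and 23 of the 24, and changed no count against siNS by over 1.5 times. In comparisons where the numbers do not pair the arrays it is a check only.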
